A study of Mus musculus with 4 samples.

Results

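The factors described here pattern the embryonic kidney and urinary tract, and several of their genes are mutated in congenital malformations of those organs. The set was chosen by name and holds 9 genes: Pax2, Pax8, Six2, Eya1, Sall1, Foxd1, Tcf21, Sox9 and Foxc1. Every probe set whose only annotated gene symbol was one of these was used, which gave 16 of the 45101 probe sets and 8 of the 18193 named genes. Pax2, a paired box factor, had no such probe set and was not analysed here. Where a gene had several probe sets, its level is that of the probe set with the highest mean.

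The samples were 4 ureters of adult male mice of strain FVB/N at Theiler stage 28. All 4 carried the SMGA/EGFP transgene, in which regulatory sequence of smooth muscle gamma actin (Actg2) drives a green fluorescent protein, so no sample without the transgene was compared. The ureter was cut out between kidney and bladder by that fluorescence, which means that lining, connective tissue and vessels came with the muscle. Each unpooled RNA sample went through 2 rounds of amplification and onto its own Affymetrix MOE430 array. They form 1 group, so there was no contrast between conditions. The question was which of these developmental factors the adult ureter still expressed, and with what spread. Replicates 1 to 4, numbered without order, are not stated to be separate animals. So the p-values reflect only how these samples varied, which may be technical, and the number of arrays limits the precision.

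In the embryo the ureteric bud grows out of the nephric duct into mesenchyme that forms the nephrons. Pax2 and Pax8 specify the nephric lineage, while Eya1, Sall1 and relatives of Six2 act in the mesenchyme that attracts the bud. Six2 keeps nephron progenitors undifferentiated, Foxd1 marks the renal stroma, and Tcf21 acts in mesenchyme and podocytes. Foxc1 limits where the bud forms, and Sox9 acts at the bud's tips and in cartilage.

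Levels are log2(intensity + 16), a scale on which the pseudocount of 16 compresses differences among dim probe sets. Background was set on each array at the 95th percentile of 86 probe sets for chemosensory receptors, at levels from 6.99 in replicate 2 to 7.57 in replicate 3. The mean of each probe set over the 4 samples was tested against those thresholds with limma, one-sided, and a Benjamini-Hochberg adjusted p under 0.05 counted as above background. For a gene, 1 such probe set was enough. Levels of different genes are not ranked against each other, because probe sets differ in how brightly they report a transcript.

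The samples held RNA of other tissues to unequal degrees. All 12 listed urothelial, 9 smooth muscle and 8 fibroblast markers lay over the threshold on every array. Upk3a, another urothelial gene, held in the malformation list and chosen with its values known, did so only in replicate 3. Its level was 14.91 there, against 4.55, 6.38 and 7.03 in replicates 1, 2 and 4. All 10 skeletal muscle markers lay over the threshold in replicate 3, against 1 to 3 elsewhere. All 7 liver markers did so in replicates 1 and 3, against 1 in each of the others. Of 9 male reproductive tract markers, replicates 1 and 2 each had 8 over the threshold, replicate 3 had 3 and replicate 4 had 2. Replicate 2 was highest for 6 of these markers and replicate 3 for 3. Their summed intensity was nevertheless largest in replicate 3, at 103602, against 81579 in replicate 2, 14117 in replicate 4 and 11724 in replicate 1. In replicate 3 that sum came mainly from Defb1, at 59402, and Pbsn, at 43669, both chosen with their values known. It does not rank the samples by content of that tissue. For Gapdh, signal at the 3' end over that at the 5' end ranged from 18.8 in replicate 4 to 36.9 in replicate 2, so probe sets far from the 3' end of a transcript may read low.

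Of the 8 measured factors, Foxc1, Sox9, Eya1 and Six2 were above background in the adult ureter, and Pax8, Sall1, Foxd1 and Tcf21 were not. The share, 50%, is near the 57.9% of all named genes called by the same rule, and the set was not tested as a whole. The same 4 factors lay over the threshold on every array, as did 58.4% of all named genes. In single samples 5, 6, 5 and 7 of the 8 factors lay over the threshold in replicates 1 to 4, where between 66% and 68.5% of all named genes did. In bulk tissue, fewer cells of a type and less RNA per cell cannot be told apart. Leaving out any 1 replicate gave 4 factors again. The background decided the weaker calls: 3 factors passed with each of 3 other backgrounds, all without Six2, where 53.9%, 50.8% and 52.5% of all named genes passed. Only Foxc1 passed with a background of the median plus 3 scaled median absolute deviations, an alternative chosen after seeing the data, where 39.9% of all named genes did.

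**Figure D1:**
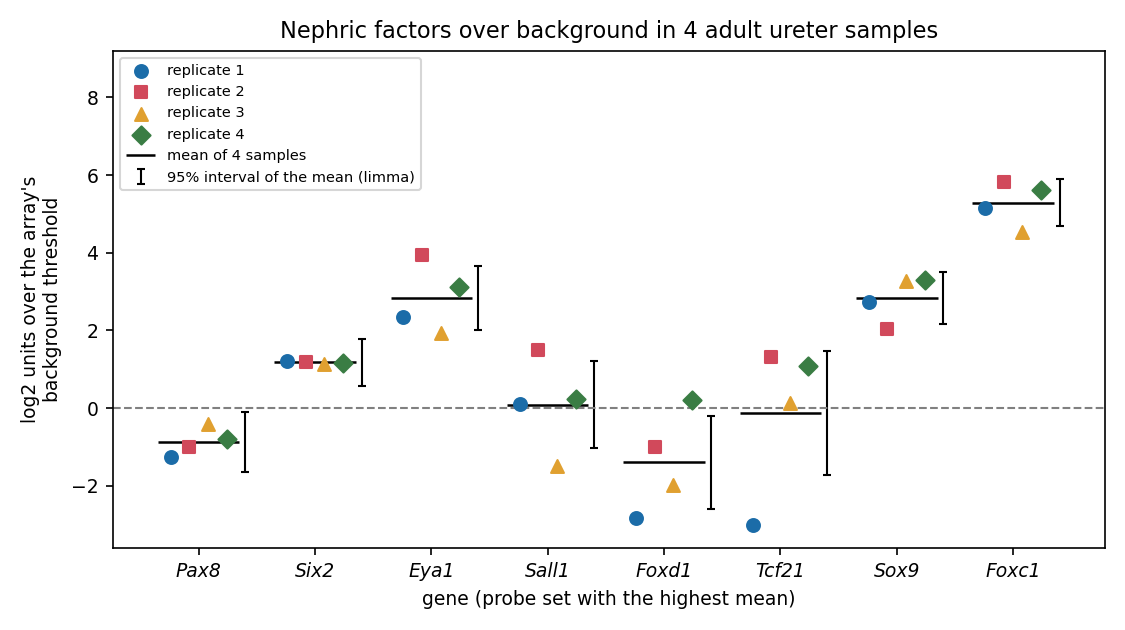
Signal of 8 nephric factors over each array's background threshold, in log2 units, with 1 marker per sample, the mean of 4 samples as a line and its 95% interval from limma as a bar. Foxc1, Sox9, Eya1 and Six2 lie over the dashed line in every sample, while Sall1, Tcf21 and Foxd1 have samples on both sides and Pax8 lies under it.

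Foxc1, a forkhead factor whose loss in mice gives duplicated ureters, gave the firmest call. Its brighter probe set, 1419486_at, had intensities of 5418, 7220, 4323 and 8039 in replicates 1 to 4, which are levels of 12.41, 12.82, 12.08 and 12.98. All 4 samples lay far over the threshold, by 4.52 to 5.83 log2 units. The mean level was 12.57 ± 0.40 (SD, n = 4), and its mean distance over the threshold was 5.28 with a standard error of 0.26 (limma, adjusted p = 2.80e-07). The other probe set, 1419485_at, designed from the same sequence record, had levels of 12.06, 11.35, 10.90 and 12.18 and was also above background (limma, adjusted p = 1.89e-06). Both probe sets were highest in replicate 4 and lowest in replicate 3, but they placed replicates 1 and 2 in opposite order.

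Sox9, an HMG box factor of the ureteric bud tips and of cartilage, was above background by 2 of its 3 probe sets. The probe set 1424950_at had levels of 9.97, 9.03, 10.85 and 10.65 in replicates 1 to 4. Replicates 3 and 4 were high and replicate 2 was lowest, a range of 1.81 log2 units. The mean was 10.12 ± 0.82 (SD, n = 4), at a distance of 2.83 over the threshold with a standard error of 0.29 (limma, adjusted p = 2.49e-05). The second probe set, 1451538_at, from the same record, had 8.66, 8.97, 11.11 and 9.58 (limma, adjusted p = 0.000446). It set replicate 3 further apart, with a difference of 2.04 from the mean of the others against 0.96 by the first. The third, 1433889_at, had 5.88, 5, 5.30 and 6.29 and lay under the threshold on every array. The collecting duct list had a median 1.10 above the other samples in replicate 3, 0.90 above in replicate 4 and 0.81 below in replicate 2. Its genes differed, as 5 of 8 were highest in replicate 3 and 4 were lowest in replicate 2. In replicate 3 the medians of skeletal muscle and fat were also above the other samples, by 7.28 and 1.28, and that of fibroblasts was 2.14 below. Of the 4 measured fat markers, however, 0 were above background, against 57.9% of all named genes. Only 2 of them lay over the threshold in replicate 3. The part of these lists in the order of the Sox9 values was not tested.

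Eya1, a phosphatase and coactivator that works with Six2 and its relatives and is mutated in branchio-oto-renal syndrome, was above background by 1 of 3 probe sets. That probe set, 1457424_at, had levels of 9.58, 10.93, 9.49 and 10.47 in replicates 1 to 4. Replicates 2 and 4 were higher than replicates 1 and 3, and all lay over the threshold, by 1.93 to 3.94 log2 units. The mean was 10.12 ± 0.70 (SD, n = 4), 2.83 over the threshold with a standard error of 0.35 (limma, adjusted p = 9.59e-05). The probe set 1421727_at also had its highest level in replicate 2, at 7.69, the only sample over the threshold, with 6.09, 5.36 and 5.53 in replicates 1, 3 and 4. The third, 1443117_at, lay under the threshold throughout, between 4.22 in replicate 4 and 6.19 in replicate 3. With the scaled median absolute deviation background, Eya1 and Sox9 were 0.78 and 0.79 over the threshold and lost their calls (limma, adjusted p = 0.122 and 0.119).

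Six2, the homeobox factor of nephron progenitors, had the most even level of the 8 factors. Its only probe set, 1427436_at, had levels of 8.47, 8.18, 8.70 and 8.53 in replicates 1 to 4. Each sample lay 1.13 to 1.22 log2 units over its own array's threshold. The mean was 8.47 ± 0.22 (SD, n = 4), 1.18 over the threshold with a standard error of 0.26 (limma, adjusted p = 0.00323). The annotation table lists no sequence record for this probe set, so its identity rests on the symbol. Six2 lost its call with the 99th percentile of the same receptors (limma, adjusted p = 0.0693), with the median plus 3 median absolute deviations (0.49) and with photoreceptor and lens genes as background (0.152). Leaving out single replicates gave adjusted p from 0.00748 to 0.0168.

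Sall1, a zinc finger factor mutated in Townes-Brocks syndrome, lay at the threshold. Its brighter probe set, 1437983_at, had levels of 7.34, 8.49, 6.07 and 7.60 in replicates 1 to 4. Replicate 2 lay 1.5 log2 units over the threshold, replicates 1 and 4 lay 0.10 and 0.24 over it, and replicate 3 lay 1.49 under it. The mean of 7.38 ± 1 (SD, n = 4) was 0.08 over the threshold, with a 95% interval from -1.04 to 1.21 (limma, adjusted p = 0.867). Without replicate 3 the distance was 0.61 (limma, adjusted p = 0.197), and without replicate 2 it was -0.39. The second probe set, 1450489_at, had the reverse extremes, with 4.53 in replicate 2 and 5.13 in replicate 3, and lay under the threshold on every array. By their brightest probe sets only, Eya1 and Sall1 were both highest in replicate 2 and lowest in replicate 3. The endothelial marker median also lay 1.11 above the other samples in replicate 2 and 1.39 below them in replicate 3, and the fibroblast median 0.89 above and 2.14 below. The male reproductive tract median lay 5.70 above in replicate 2 and 2.52 below in replicate 3. That of smooth muscle lay 1.17 above in replicate 2 and 0.19 above in replicate 3. In replicate 1 the fibroblast median was 0.86 above the other samples, and Eya1 was 0.72 and Sall1 0.04 below them. Whether these moved the values of Eya1 or Sall1 was not tested.

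Tcf21, a basic helix-loop-helix factor of mesenchyme and podocytes, had the largest SD of the 8 factors. Its brighter probe set, 1417447_at, had levels of 4.25, 8.30, 7.68 and 8.43 in replicates 1 to 4. The intensities were 3.03 in replicate 1 and 189 to 328 in the others, so the size of that gap depends on the pseudocount. Replicate 1 lay 3 log2 units under the threshold and the other samples 0.12 to 1.31 over it. The mean of 7.17 ± 1.97 (SD, n = 4) was 0.12 under the threshold, with a 95% interval of the distance from -1.72 to 1.47 (limma, adjusted p = 1). Without replicate 1 the distance was 0.83 and still missed the call (limma, adjusted p = 0.0969). The second probe set, 1458887_at, was also lowest in replicate 1, at 5.63, with 6.98, 7.81 and 7.31 in the others, and only replicate 3 lay over its threshold. In replicate 1 the smooth muscle median was 1.11 below the other samples and the liver median 5.12 above them. The fibroblast median was 0.86 above the other samples there. The part of these lists in the Tcf21 values was not tested.

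Foxd1, the forkhead factor of renal stroma, had levels of 4.43, 5.98, 5.58 and 7.56 in replicates 1 to 4 by its only probe set, 1418876_at. Only replicate 4 lay over the threshold, by 0.20. The mean was 5.89 ± 1.30 (SD, n = 4), 1.40 under the threshold, with a 95% interval of the distance from -2.61 to -0.20 (limma, adjusted p = 1). Like the brighter probe set of Tcf21, it was lowest in replicate 1 and highest in replicate 4.

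Pax8, a paired box factor of the nephric lineage and the thyroid, lay under the threshold in every sample. Its brighter probe set, 1418208_at, had levels of 5.99, 5.99, 7.14 and 6.55 in replicates 1 to 4. The mean was 6.42 ± 0.55 (SD, n = 4), 0.87 under the threshold, with a 95% interval of the distance from -1.66 to -0.09 (limma, adjusted p = 1). The second probe set, 1446561_at, lay between 5.55 and 6.17, also under the threshold throughout. Both were highest in replicate 3 and lowest in replicate 2. Umod, Slc12a1 and Slc12a3, genes of a secreted protein and salt transporters of the nephron, likewise lay under the threshold in every sample. Against 57.9% of all named genes, 1 of 9 nephron markers (11.1%) was above background. That gene, Kap, chosen with its values known, has only probe sets that may match several transcripts, and lost its call with the scaled median absolute deviation background. Of 8 collecting duct markers 4 (50%) were above background, but only 1 was with the median plus 3 median absolute deviations. Of all named genes 57.9% and 50.8% passed with these 2 backgrounds. Aqp2, the water channel of that segment, had 6.55, 7.24, 8.46 and 8.03 in replicates 1 to 4 and was not above background (limma).

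**Figure D2:**
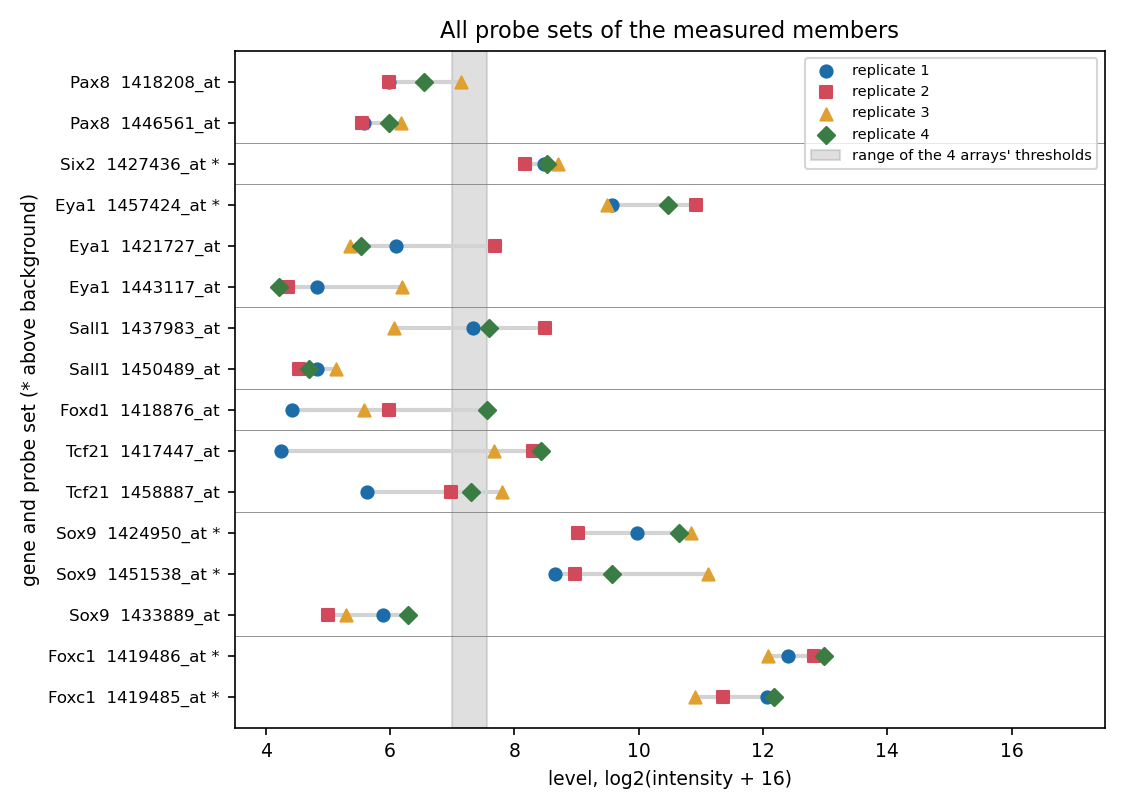
Levels of all 16 probe sets of the 8 measured factors, log2(intensity + 16), with 1 marker per sample, grouped by gene. Asterisks mark the 6 probe sets above background and the grey band spans the 4 arrays' thresholds, and the probe sets of Eya1, Sox9 and Sall1 lie at very different levels while the pair of Foxc1 lies well to the right of the band.

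Probe sets of the same gene often disagreed on the call. Among the 6 factors with more than 1 probe set, Eya1 and Sox9 had probe sets on both sides of it, against 51.7% of the 9010 named genes with more than 1. The brightest pair of probe sets named the same highest sample in 4 of the 6 factors (Pax8, Eya1, Sox9 and Foxc1), against 36.6% of those genes. The pair named the same lowest sample in 4 of 6 (Pax8, Eya1, Tcf21 and Foxc1), against 34%. These counts describe the arrays and were not tested.

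None of the factors passed a test of spread between the samples. The test divided a probe set's variance by limma's trended prior variance, which stands for probe sets of like level, and was run on probe sets above background. It passed 0 of 10523 named genes (0%) after Benjamini-Hochberg adjustment in limma. Even Alb of the liver list, with levels from 6.91 in replicate 2 to 14.58 in replicate 1, did not pass (limma, adjusted p = 0.359). Failing this test with 4 samples therefore does not show that a gene had an even level. At an unadjusted p under 0.05 there were 1155 of 18427 probe sets, and 0 of them belonged to these factors. For Sox9, the SD of 0.82 stood beside a prior SD of 0.53 (limma, adjusted p = 0.996). The SD of 0.70 of Eya1 also stood beside 0.53, the 0.40 of Foxc1 beside 0.39, and the 0.22 of Six2 beside 0.58. Tcf21, Sall1, Foxd1 and Pax8 entered no spread test with this filter. Without it Tcf21 had a variance ratio of 5.95 (limma, adjusted p = 0.964), the largest of the 8. The median SD of the 8 factors was 0.76, against 0.50 for all named genes, but these medians were not matched for level. By sample the factors' median level was 7.90 to 8.48, against 9.18 to 9.33 for all named genes. So the 2 SDs do not show that the factors varied more than genes of like level.

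**Figure D3:**
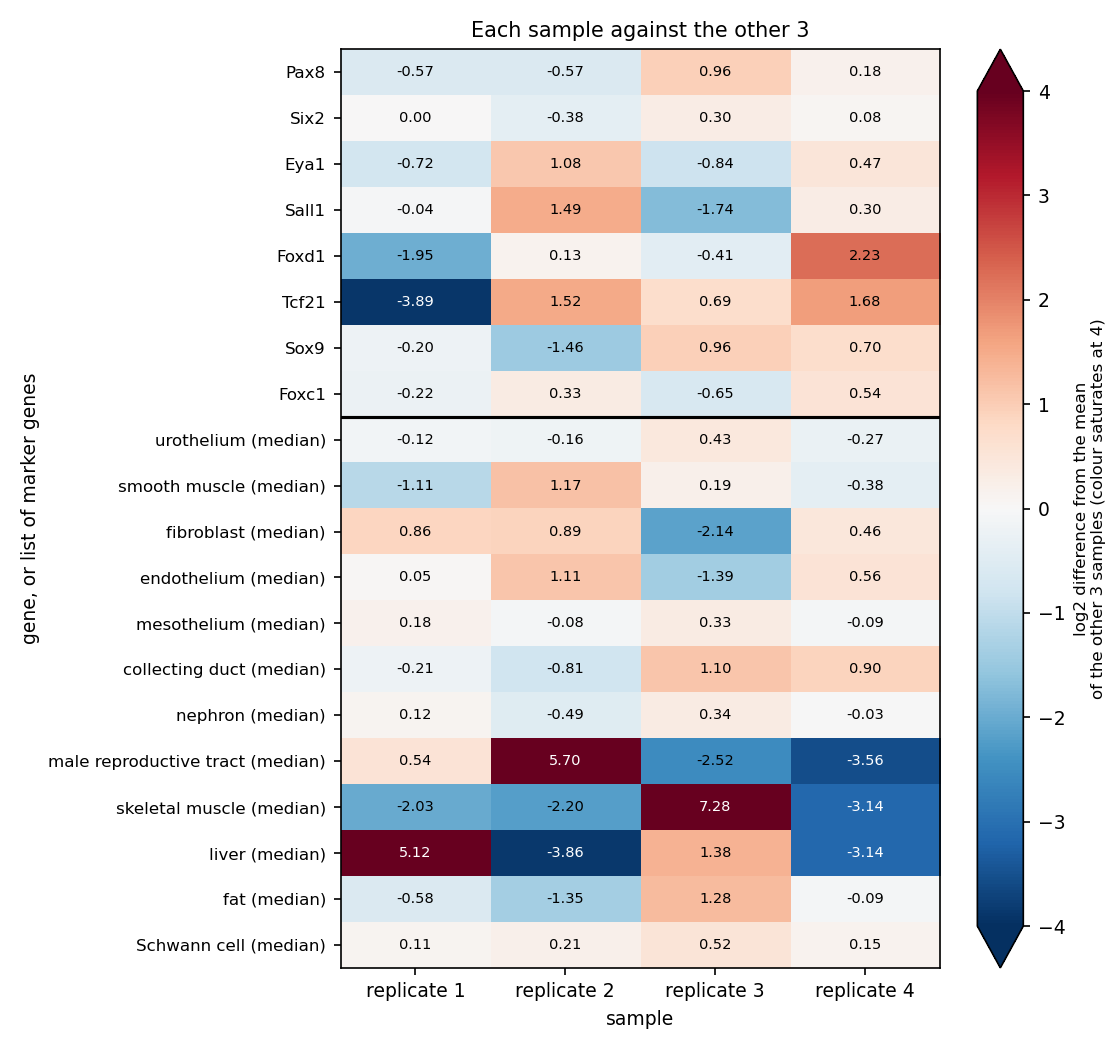
Log2 difference of each sample from the mean of the other 3, for the 8 factors (upper block) and as the median of each marker list (lower block), with colour saturating at 4. The skeletal muscle list was 7.28 above in replicate 3. The size of a difference depends on the pseudocount where a sample lies under the threshold, as Tcf21 does in replicate 1 and Sall1 in replicate 3.

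Close relatives of the factors were above background in 8 of 26 measured cases (30.8%, against 57.9% of all named genes). The first members of the paired box family in the list, Pax1 at 6.09 ± 0.46, Pax3 at 6.70 ± 1.70, Pax4 at 5.94 ± 1.03 and Pax5 at 5.77 ± 1.46, were not above background (limma). The 8 that passed were chosen for naming after their values were known. Pax9, at 10.76 ± 0.46, was the only paired box gene among them. The 3 other Eya genes all passed, with levels of 9.90 ± 0.59 for Eya2, 9.82 ± 0.61 for Eya3 and 8.57 ± 1.07 for Eya4. Six4 had 10.88 ± 1.13 and Six5 had 8.64 ± 0.16. Sall2 had 8.78 ± 0.82 and Foxc2, the nearest relative of Foxc1, had 8.97 ± 1.5, where replicate 3 was low at 6.79 and the others lay from 9.21 to 10.10. Foxd2, also chosen with its values known, missed the call at 8.27 ± 0.80 (limma, adjusted p = 0.0506). With either of 2 stricter backgrounds, the median plus 3 median absolute deviations and the photoreceptor and lens genes, 4 relatives passed. Of all named genes 50.8% and 52.5% passed with these backgrounds.

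Partners of the factors in nephric and ureteric development were above background in 9 of 20 cases (45%, against 57.9% of all named genes). Osr1, a zinc finger factor of the earliest nephric mesenchyme, passed at 8.69 ± 0.79 (limma, adjusted p = 0.00841). Wt1 at 5.66 ± 0.30, Lhx1 at 4.56 ± 0.35 and Emx2 at 4.63 ± 0.73, factors of nephron and duct formation, did not. The next genes were also chosen with their values known. Gata3, a zinc finger factor of the nephric duct and of urothelium, had 14.23 ± 0.68 (limma, adjusted p = 3.14e-08), and Wnt4, a signal for nephron formation, had 13.73 ± 0.26. Ret, the receptor on the ureteric bud, had 13.38, 13.09, 10.59 and 13.37 in replicates 1 to 4, with replicate 3 low. Its co-receptor Gfra1 had 12.46 ± 0.41 and passed, while Gdnf, the ligand, did not at 4.53 ± 0.18. Dach1, a cofactor that works with Eya1, passed at 12.25 ± 0.69. Cited1, a marker of the nephron progenitors that also express Six2, did not at 4.50 ± 0.19.

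Other genes linked to urinary tract malformation were above background in 19 of 30 cases (63.3%), near the 57.9% of all named genes. Slit2, a guidance ligand that limits bud outgrowth, passed at 10.27 ± 1.26 (limma, adjusted p = 0.00037), and was low in replicate 4, at 8.41 against 10.60 to 11.18 elsewhere. Its receptor Robo2, at 5.38 ± 1.26, lay under the threshold in every sample. Fras1 and Frem1, matrix proteins of the Fraser complex, did not pass at 7.85 ± 2.40 and 5.29 ± 0.82. Chosen with their values known, Itga8 and its ligand Npnt, which act upstream of Gdnf, passed at 10.46 ± 1.74 and 11.60 ± 0.55, and Hpse2, mutated in urofacial syndrome, passed at 8.22 ± 0.42 (limma, adjusted p = 0.0246).

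Cartilage genes that Sox9 controls were above background in 2 of 11 cases (18.2%, against 57.9% of all named genes). Col2a1 at 4.80 ± 0.21, Acan at 7.28 ± 0.56, Col9a1 at 6.80 ± 0.87 and Col9a2 at 5.42 ± 0.99, genes of cartilage collagens and of the proteoglycan aggrecan, did not pass (limma). The 2 that did, chosen with their values known, were Comp, a cartilage matrix protein also made in other connective tissue, at 10.19 ± 1.68, and Sox6, a partner of Sox9, at 8.93 ± 0.64. Comp was lowest in replicate 3, at 7.87, where Sox9 was highest, and ranged from 10.04 to 11.57 in the others.

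**Figure D4:**
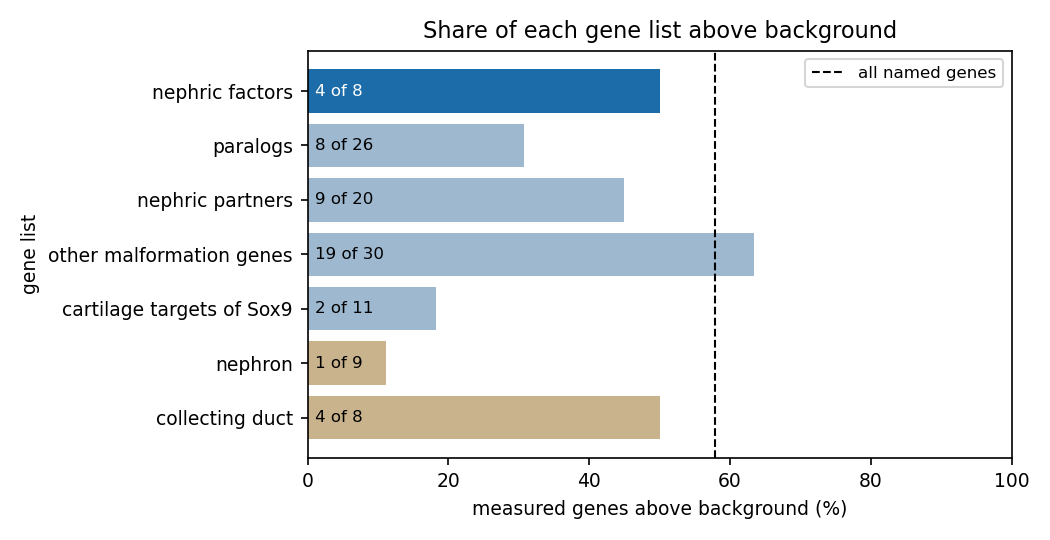
Percent of the measured genes of each list that were above background, with the counts written in the bars and the share of all named genes, 57.9%, as a dashed line. The 8 nephric factors lie at 50%, the relatives at 30.8%, the partners at 45%, the other malformation genes at 63.3% and the nephron markers at 11.1%.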

How the data were processed

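The deposited values are linear intensities, 1 for each probe set on each array. The submitters' processing notes name GCOS, the Affymetrix scanner software, without a version, and how it summarised probes is not given in the sources used here. The trimmed mean of every array was 1500, so values were used as scaled. Control probe sets, 64 in all, were not tested. Of 45037 tested probe sets, 34945 had 1 symbol, 932 several and 9160 none in the platform's annotation table, and only those with 1 were named. RefSeq genes of GRCm38.p6 matched 34741 of them by identifier and left every symbol as it was. No coordinates are given because no build is named for the arrays.

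The background and spread tests used limma 3.58.1 with trended, robust variance in R 4.3.3. Intervals are moderated 95% intervals. The spread test had 3 and 5.25 degrees of freedom. The members, lists and alternatives were chosen with earlier results of these data known, and no list was tested as a set. The text names all factors, the first 4 measured genes of each pathway list and, of marker lists, up to the first 3, and others are said to be chosen with their values known. In all, 13 listed genes, Pax2 among them, had no probe set with 1 symbol. The alternatives changed the pseudocount (1 or 64), the background, the normalization (quantile), the filter, the rule for several probe sets or left out 1 replicate.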

Additional observations from a re-analysis of the deposited data

Results flagged for a closer look

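Sets of 4 values, 90 in all, were examined for 1 sample far from the others, and 7 stood out. The 90 sets were those of the factors' probe sets, of genes named in the text and of the first 3 of each marker list. Upk3a, Pbsn and Defb1, though named, were not among them. The measure was the gap to the nearest sample divided by the range, against Dixon's 95% limit for 4 values. Pbsn, left out of the count, also passed that limit, at 0.907. Chance alone gives about 1 in 20 in sets not picked by their values. Some of these genes were chosen with their values known, so the count of 7 cannot be compared with that rate. Other genes of the lists were not examined this way. None of the 16 probe sets of the nephric factors stood out. The ratio was 0.896 for Ret, lowest in replicate 3 at 10.59, 0.905 for Pax1, lowest in replicate 2 at 5.41, and 0.899 for Pax5, highest in replicate 3 at 7.95. It was 0.934 for Emx2, highest in replicate 1 at 5.72, and 0.854 for Acan, lowest in replicate 1 at 6.45. Among tissue markers it was 0.969 for Myh4 of skeletal muscle and 0.839 for Fabp4 of fat, highest in replicate 3 at 16.39 and 14.93.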

How the results depend on the processing

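The count of factors above background was 3 or 4 under the alternatives listed with the methods and 1 with the scaled median absolute deviation background, where 39.9% of all named genes passed. With that background the distances over the threshold were -0.87 for Six2 and -1.96 for Sall1. The distance of Sall1 was -0.43 with the 99th percentile, -0.72 with unscaled deviations and -0.63 with photoreceptor and lens genes, and without single replicates it ranged from -0.39 to 0.61. The distance of Tcf21 was 0.11 with a pseudocount of 64 and ranged from -0.47 to 0.83 without single replicates. Six2 was over the threshold by 0.66, 0.38 and 0.46 with those 3 backgrounds and was not called. The count of factors passing the spread test was 0 in every setting run, while of all named genes 5 passed without replicate 2 and 3 without replicate 3. With the median plus 3 unscaled deviations the counts were 4 of 26 relatives, 1 of 11 cartilage genes and 1 of 8 collecting duct markers. Of all named genes 50.8% passed with that background. With scaled deviations 9 of 30 other malformation genes passed, against 39.9% of all named genes. No paired analysis was possible because all samples form 1 group. Quantile normalization moved the median of all probe sets by 0.11, 0.20, -0.25 and -0.05 and changed no call of a factor. Low signal over background limits Six2, Sall1, Tcf21, Foxd1 and Pax8.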
